A study of Mus musculus with 18 samples.

Results

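The genes examined here were 40 mouse genes that take up fatty acids, activate them and break them down, out of the 20295 genes counted in this RNA-seq experiment. They were listed by their function in the pathway, and the symbol of each was found in the count table. By role they fell into 7 groups: 7 genes of uptake and binding, 5 acyl-CoA synthetases, 4 genes of the carnitine shuttle, 9 of the mitochondrial β-oxidation spiral, 3 that handle unsaturated chains, 3 that pass electrons on from the acyl-CoA dehydrogenases, and 9 of peroxisomal oxidation and the peroxisome. All samples came from BAT-LgT cells, a single line made from wild-type (WT) brown preadipocytes of the mouse, which carry SV40 large T antigen for immortalisation and were differentiated in culture, so that the samples stand for one line rather than for several animals. On day 7 the brown adipocytes were left without inhibitor or received inhibitors of ATGL and HSL, the enzymes that release fatty acids from stored triglyceride, for 1 h. They were then treated for 3 h with Vehicle (DMSO), with 100 nM isoproterenol (ISO), an agonist of the β-adrenergic receptors, or with SR-3420, a ligand of ABHD5 that switches on ATGL without the receptor. The labels give 10 µM SR-3420 and the text of the study gives another dose, which was not settled here. The 6 groups, each with 3 samples, are called Vehicle, ISO and SR-3420 without inhibitors and, in the same order, Lipase Inh. + Vehicle, Lipase Inh. + ISO, and with the ABHD5 ligand Lipase Inh. + SR-3420. The study's methods describe the RNA-seq replicates as independent experiments, and the labels do not tie the replicate numbers to them.

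Fatty acids enter brown adipocytes with the help of CD36 and the fatty acid transport proteins, are carried in the cytosol by fatty acid binding proteins, and are trapped as acyl-CoA by the synthetases. Carnitine palmitoyltransferases move the acyl groups into the mitochondrion, where the β-oxidation spiral shortens them and hands electrons to the respiratory chain. Peroxisomes begin the oxidation of very long and branched chains. In brown fat this pathway burns the fatty acids freed by lipolysis, and those fatty acids are known both as fuel of UCP1-driven heat production and as ligands of the PPAR nuclear receptors, which regulate many of these genes.

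Of the 18 libraries, 17 held 10310447 to 21205032 counts. Lipase Inh. + SR-3420 replicate 2 held 4263755, and the single gene Lars2 took 18.3% of them, against at most 0.121% in the others. The brown adipocyte markers Adipoq, Plin1, Lipe and Pnpla2 were abundant, and the summed level of 12 such markers ranged from 7602 to 11689 CPM over the samples, where CPM are counts scaled to a library of 1000000 after TMM adjustment. Ucp1 was at a mean of 2.69 CPM in Vehicle, 364 with ISO and 11.9 with SR-3420, while the brown markers Dio2 and Cox7a1 never exceeded 6 and 36 counts. Markers of other cells were low: 5 fibroblast markers summed to 80.2 to 128.7 CPM, 4 macrophage markers to 1.96 to 6.30, 3 endothelial markers to 0 to 0.524 and 3 skeletal muscle markers to 0 to 1.53. The macrophage marker Ptprc had 0 counts in all 18 libraries. Cd68 and Myod1 were higher with ISO than with Vehicle, by 0.74 and 1.55 on the log2 scale, from means of 2.88 and 0.443 CPM, and so was the fibroblast marker Pdgfra, by 0.56. When libraries were scaled by total counts alone, without TMM adjustment, none of Cd68, Myod1 and Pdgfra passed with ISO. With SR-3420 the fibroblast markers Dlk1 and Col1a1 were higher by 0.80 and 0.43. Of 11 tested adipocyte markers, 4 were higher with SR-3420 (26.0% of all genes), namely Plin1, Ppargc1a, Lipe and, with the largest rise of 2.11, Ucp1. Another 4 were lower (25.4% of all genes), Adrb3 at -1.39, Pparg at -0.83, Adipoq at -0.52 and Pnpla2 at -0.24. With ISO 4 of the 11 were higher and 1 was lower (26.8% and 25.0% of all genes), or 4 and 4 on total counts alone. The part of other cell types in the results was not tested. In bulk RNA, a smaller share of one cell type and less RNA of a gene per cell cannot be told apart.

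Levels differed widely among the members. Compared per kilobase of counted length in Vehicle, Fabp4 stood highest at 4061 ± 57.3 CPM per kb (SD, n = 3), followed by Acadm at 314 ± 22.5. Fabp5 at 262 ± 17.6, Acsl1 at 249.5 ± 10.8 and Hadh at 235 ± 18.8 came next, and these 3 neighbours lay within or close to each other's spread. At the lower end stood Cpt1a at 5.52 ± 0.0573, Fabp3 at 0.783 ± 0.426 and Acss1 at 0.154 ± 0.0846 CPM per kb. Slc27a2, the transport protein and acyl-CoA synthetase FATP2 known from liver, had 0 counts in all 18 libraries. A count of 0 still allows a level of up to 0.152 to 0.799 CPM, the level of 3 counts in the deepest and the shallowest library. Slc27a2 could therefore not be tested, and all counts that follow are of the other 39 members. The position of Cpt1b also needs care, since its counted length was 150 bases of a gene spanning 9458 bases.

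Together the 40 genes made up 1.04% ± 0.0258 of all counts in Vehicle (SD, n = 3), 1.35% ± 0.0427 with ISO and 1.15% ± 0.0158 with SR-3420. The 3 groups did not overlap. These rises rested largely on Acsl1, whose mean without TMM adjustment was 1073 CPM in Vehicle, 3464 with ISO and 2592 with SR-3420. Acsl1 made up most of the rise of the set with ISO. With SR-3420 it rose by more than the whole set. The other members together thus had a smaller share with SR-3420 than in Vehicle. With inhibitors the shares were 0.955% ± 0.0450 in Lipase Inh. + Vehicle, 1.18% ± 0.0166 in Lipase Inh. + ISO and 0.999% ± 0.127 in Lipase Inh. + SR-3420. In replicate 2 of this last group Lars2 took 18.3% of the counts, which lowers the share of every other gene there. The mean and spread of the group are affected by that library.

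A member was called higher or lower at an adjusted p of at most 0.05 in edgeR's quasi-likelihood test with Benjamini-Hochberg adjustment over the 12156 genes tested. With ISO, 17 of 39 members were higher and 4 lower than in Vehicle, where 26.8% and 25.0% of all genes were. With SR-3420, 13 were higher and 15 lower, against 26.0% and 25.4% of all genes. The median log2 fold change of the members was 0.30 with ISO and -0.043 with SR-3420, and that of all genes was -0.021 and -0.017. These figures depend on how libraries are scaled: on total counts alone the median gene shifted by -0.31 with ISO and by -0.16 with SR-3420, and the members split into 7 higher and 15 lower with ISO and 5 higher and 17 lower with SR-3420. Larger changes were fewer. Past a log2 change of 1 as well, 5 members were higher with ISO (5.03% of all genes) and 2 with SR-3420 (3.97%), and none was lower with either (4.07% and 2.37% of all genes), which also held at an unadjusted p under 0.05 and with DESeq2. On total counts alone 2 members were higher and 1 lower with ISO past both thresholds (Abcd2 at -1.26), and 1 was higher and none lower with SR-3420. The count of 4 lower members with ISO rested on single samples: it was 1 without Vehicle replicate 1 and 2 without ISO replicate 1 or 2.

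**Figure D1:**
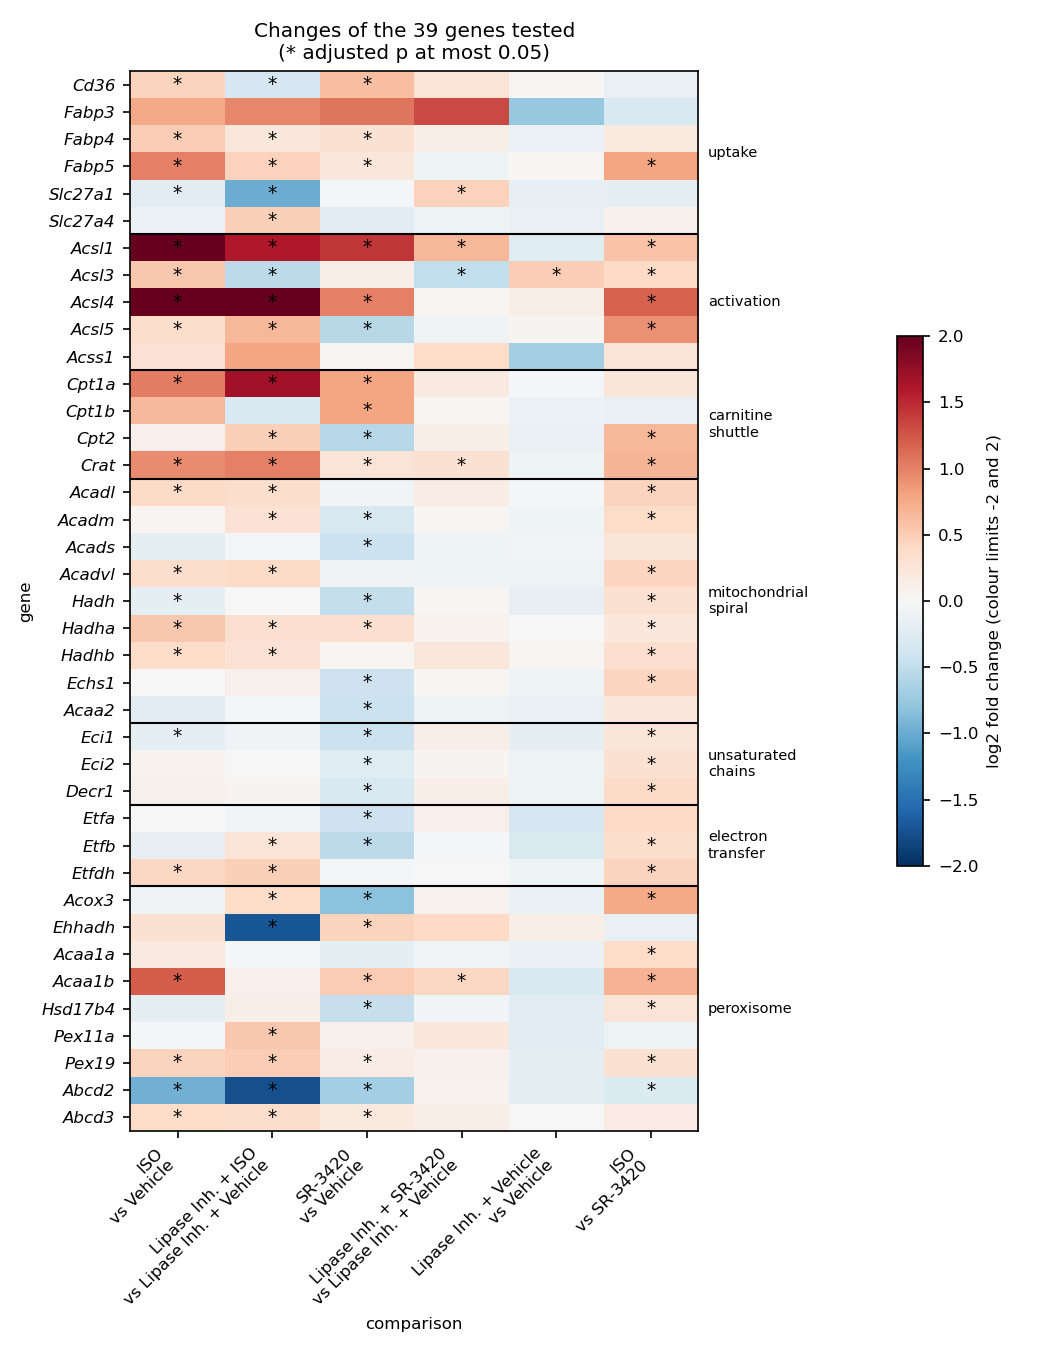
Log2 fold changes of the 39 tested members (vertical axis, grouped by role) in 6 comparisons (horizontal axis), with colour limits at -2 and 2 and an asterisk where the adjusted p was at most 0.05. Acsl1, Acsl4, Cpt1a and Crat are red with ISO both without and with inhibitors, the SR-3420 column is blue over most of the mitochondrial block, and the column of the inhibitors alone holds 1 asterisk, at Acsl3.

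Among the genes of uptake and binding, both stimuli raised Cd36, Fabp4 and Fabp5. Cd36, which encodes the fatty acid translocase of the plasma membrane (chr5:17287508-17394777, mm9), was at 427, 505 and 422 CPM in the 3 Vehicle samples, 619, 654 and 582 with ISO and 689.5, 716 and 652 with SR-3420. Under inhibitors it was at 469, 506 and 411 in Lipase Inh. + Vehicle, 363, 384 and 349 in Lipase Inh. + ISO and 535, 613 and 519.8 in Lipase Inh. + SR-3420. Without inhibitors both stimulated groups lay above Vehicle, whereas with inhibitors the ISO samples lay below all others of the series. The log2 change with ISO was 0.45 ± 0.084 (SE, n = 3 per group, adjusted p = 0.000117, edgeR) without and -0.34 ± 0.085 (adjusted p = 0.00173) with inhibitors, so that its direction turned. The difference between both effects, tested as an interaction, was -0.79 ± 0.12 (adjusted p = 2.48e-05). For SR-3420 the interaction was -0.34 ± 0.12 (adjusted p = 0.0405), and this call was lost in 8 of the fits that left out 1 sample, with samples of each of the 4 groups concerned among them (adjusted p up to 0.117).

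Fabp4, the adipocyte fatty acid binding protein, had mean levels of 2603 ± 36.7 CPM in Vehicle (SD, n = 3), 3663 ± 697 with ISO and 3215 ± 112 with SR-3420. On the log2 scale the rise was 0.49 ± 0.096 after ISO and 0.30 ± 0.096 after SR-3420. Fabp5, its epidermal relative that adipocytes also make, changed more with ISO, from 267, 244 and 234 CPM in Vehicle to 509.7, 529 and 467, than with SR-3420, where it was at 289, 294 and 289. The 3 groups did not overlap, and ISO lay above SR-3420 by 0.79 ± 0.088 (adjusted p = 8.21e-07, edgeR). The rise of Fabp5 with ISO was 1.01 ± 0.089 and fell to 0.46 ± 0.088 under inhibitors, an interaction of -0.55 ± 0.12 (adjusted p = 0.00167). Fabp3, the heart and muscle binding protein that brown fat is known to share, was counted only 3 to 18 times per library and passed in no comparison.

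Of the fatty acid transport proteins, Slc27a1 (FATP1) separated the stimuli under inhibitors. It was at 144, 144 and 158 CPM in Lipase Inh. + Vehicle, 71.8, 71.7 and 81.4 in Lipase Inh. + ISO and 209, 195 and 208 in Lipase Inh. + SR-3420, 3 groups that did not overlap. Without inhibitors it was at 175, 153 and 173 in Vehicle, 146, 122 and 159 with ISO and 159, 151 and 176 with SR-3420, where the groups overlapped. ISO changed Slc27a1 by -0.98 ± 0.089 under inhibitors (adjusted p = 4.58e-09, edgeR) and by -0.23 ± 0.087 without them (adjusted p = 0.0299), with an interaction of -0.75 ± 0.12 (adjusted p = 7.32e-05). SR-3420 raised it under inhibitors by 0.46 ± 0.088 (adjusted p = 0.00267). After TMM scaling, Slc27a4 (FATP4) passed only in Lipase Inh. + ISO against Lipase Inh. + Vehicle, where it rose by 0.48 ± 0.092, and in the ISO interaction of 0.60 ± 0.13 (adjusted p = 0.00114, edgeR). On total counts alone Slc27a4 was also lower than in Vehicle with ISO and with SR-3420.

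The calls of this group that depended on single samples were Slc27a1 with ISO (lost without Vehicle replicate 1, Vehicle replicate 3 or ISO replicate 2, adjusted p up to 0.197), Fabp5 with SR-3420 (lost without Vehicle replicate 2 or 3 or any SR-3420 replicate, up to 0.134) and Fabp4 with ISO under inhibitors (lost without Lipase Inh. + Vehicle replicate 1 or 3 or any Lipase Inh. + ISO replicate, up to 0.143). On total counts alone, the log2 change with ISO was 0.14 for Cd36 and 0.18 for Fabp4, and neither passed (adjusted p = 0.16 and 0.172, edgeR). The same scaling ended the calls of Fabp4 and Fabp5 with SR-3420, Fabp4 with ISO under inhibitors, Slc27a1 with SR-3420 under inhibitors, and the SR-3420 interaction of Cd36.

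The acyl-CoA synthetases held the largest increases that passed among the 39 members. Acsl1, the main long-chain acyl-CoA synthetase of adipocytes (chr8:47556396-47621404, mm9), was at 928, 973 and 1012 CPM in Vehicle, 3833, 3775 and 4010.2 with ISO and 2640.0, 2613 and 2601 with SR-3420. With inhibitors it was at 817, 909 and 740.1 in Lipase Inh. + Vehicle, 2509.9, 2611 and 2386 in Lipase Inh. + ISO and 1270.4, 1285 and 1355 in Lipase Inh. + SR-3420. Every stimulated sample lay above every unstimulated one, and within each stimulus the samples with inhibitors lay below those without. Acsl1 rose 3.99-fold with ISO, a log2 change of 2.00 ± 0.074 (adjusted p = 3.26e-15, edgeR), and 2.70-fold with SR-3420, a log2 change of 1.43 ± 0.073 (adjusted p = 1.07e-12). Inhibitors reduced both effects, by an interaction of -0.39 ± 0.10 for ISO (adjusted p = 0.00505) and -0.77 ± 0.10 for SR-3420 (adjusted p = 8.78e-06). On total counts alone the former was -0.31 and did not pass (adjusted p = 0.0816).

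Acsl4, a synthetase with a preference for arachidonic acid (chrX:138752536-138825078, mm9), behaved differently from Acsl1 under inhibitors. It was at 99.5, 110.3 and 101 CPM in Vehicle, 461, 587 and 363 with ISO and 215, 218 and 189 with SR-3420. Under inhibitors it was at 115, 118 and 109 in Lipase Inh. + Vehicle, 887, 903 and 839 in Lipase Inh. + ISO and 109, 116 and 123 in Lipase Inh. + SR-3420. The Lipase Inh. + ISO samples were the highest of the series, while the Lipase Inh. + SR-3420 samples overlapped the unstimulated ones. The rise with ISO was 4.55-fold without inhibitors, a log2 change of 2.19 ± 0.12, and 7.70-fold with them, a log2 change of 2.94 ± 0.12, and the interaction was positive at 0.76 ± 0.16 (adjusted p = 0.000747, edgeR). SR-3420 raised Acsl4 2.00-fold, a log2 change of 1.00 ± 0.11. With inhibitors its effect was 0.025 ± 0.12 (adjusted p = 0.947), and the interaction was -0.98 ± 0.16 (adjusted p = 0.000109). The interactions of Acsl4 thus had opposite signs for both stimuli, a difference of signs that was not itself tested.

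The 250 bases before the annotated start of Acsl4 are shown because this gene had the largest change with ISO and the window holds TGACG, the core of the cAMP response element through which CREB acts downstream of β-adrenergic receptors, written in capitals and beginning 119 bases before the start (chrX:142390536-142390785, minus strand, RefSeq on GRCm38.p6). The sequence is a description of the window and no test of binding.
Acsl4: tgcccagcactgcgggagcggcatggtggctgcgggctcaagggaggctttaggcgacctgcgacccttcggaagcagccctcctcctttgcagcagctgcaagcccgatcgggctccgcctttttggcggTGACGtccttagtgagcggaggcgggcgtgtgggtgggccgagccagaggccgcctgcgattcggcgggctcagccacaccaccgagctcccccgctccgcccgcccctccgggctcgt

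The remaining synthetases changed less. Acsl3, an acyl-CoA synthetase of the endoplasmic reticulum and lipid droplets, was the only member to change with the inhibitors alone, from 44.4, 46.6 and 50.7 CPM in Vehicle to 64.2, 69.5 and 66.2 in Lipase Inh. + Vehicle, a log2 change of 0.50 ± 0.088 (adjusted p = 0.00377, edgeR). ISO took it to 67.8, 65.3 and 72.3 without inhibitors and to 47.2, 42.6 and 48.4 with them, so that the effect turned from 0.54 ± 0.089 to -0.53 ± 0.089 on the log2 scale, an interaction of -1.07 ± 0.13 (adjusted p = 9.71e-07). In Lipase Inh. + SR-3420 it was at 48.0, 39.4 and 51.3, a change against Lipase Inh. + Vehicle of -0.50 ± 0.091 (adjusted p = 0.00181). Acsl3 overlaps Utp14b on the same strand by 9777 bases, and Utp14b had means of 27.6 CPM in Vehicle, 64.8 with ISO and 43.1 with SR-3420, and of 35.8, 47.4 and 27.9 in the same order under inhibitors, so reads of both cannot be told apart with certainty. Acsl5, a synthetase of mitochondria and endoplasmic reticulum, was the only member that was higher with ISO (0.36 ± 0.12) and lower with SR-3420 (-0.55 ± 0.13), and the direct difference of ISO over SR-3420 was 0.91 ± 0.13 (adjusted p = 1.35e-05). Its call with ISO was lost without Vehicle replicate 1, Vehicle replicate 3 or ISO replicate 2 (adjusted p up to 0.16) and on total counts alone, as was that of Acsl3 with ISO on total counts. Acss1, a mitochondrial acetyl-CoA synthetase, was counted 0 to 17 times per library and passed in no comparison.

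**Figure D2:**
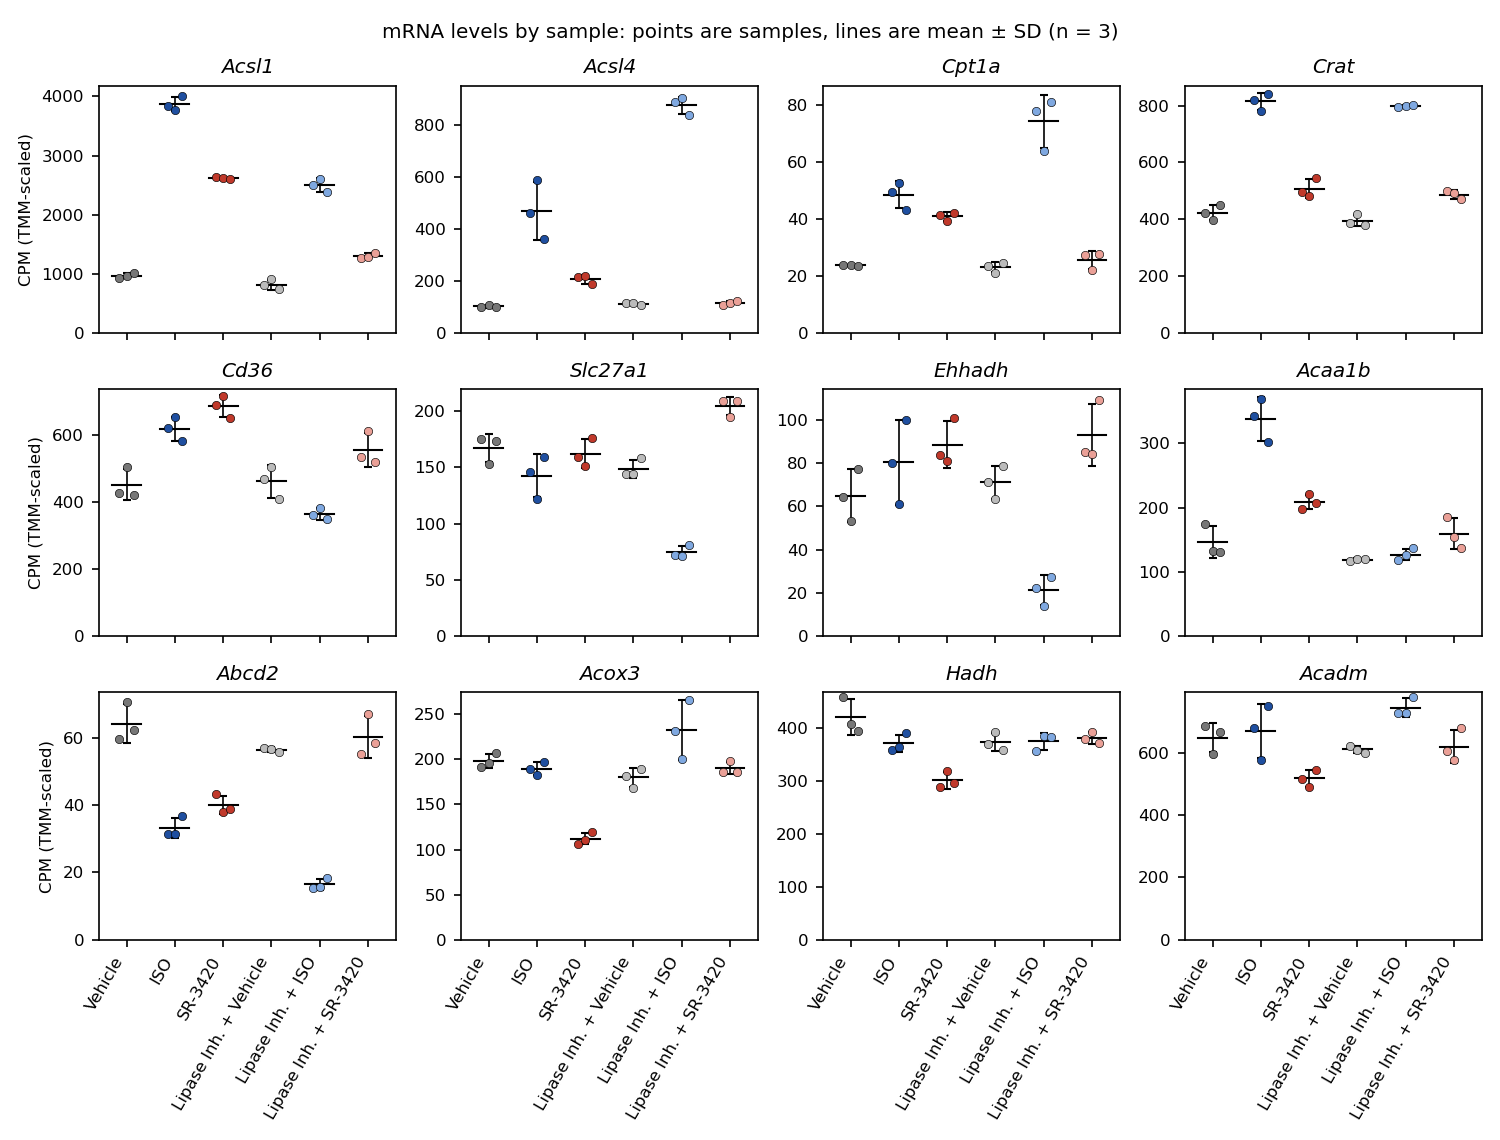
TMM-scaled CPM (vertical axes, from 0) of 12 members in the 18 samples (horizontal axes, 6 groups), with points for samples and lines for mean ± SD of 3. Acsl1 is high in every stimulated group, Acsl4 and Cpt1a are highest in Lipase Inh. + ISO, Ehhadh and Abcd2 are lowest there, and Acox3 and Hadh are lowest with SR-3420 without inhibitors.

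In the carnitine shuttle, Cpt1a and Crat rose with both stimuli. Cpt1a, the liver-type enzyme that attaches carnitine to long-chain acyl groups at the outer mitochondrial membrane (chr19:3323301-3385733, mm9), was at 23.7, 24.0 and 23.6 CPM in Vehicle, 49.3, 52.7 and 43.3 with ISO and 41.2, 39.2 and 42.2 with SR-3420. With inhibitors it was at 23.6, 21.2 and 24.6 in Lipase Inh. + Vehicle, 77.8, 63.7 and 81.1 in Lipase Inh. + ISO and 27.2, 22.1 and 27.7 in Lipase Inh. + SR-3420. As for Acsl4, the inhibited ISO samples were the highest, and the inhibited SR-3420 samples overlapped the unstimulated ones. The log2 change with ISO went from 1.03 ± 0.10 to 1.68 ± 0.099 under inhibitors, an interaction of 0.65 ± 0.14 (adjusted p = 0.00116, edgeR). The change with SR-3420 went from 0.78 ± 0.10 to 0.18 ± 0.11, an interaction of -0.60 ± 0.15 (adjusted p = 0.00403). Without inhibitors the difference between ISO and SR-3420 was 0.25 ± 0.097 and did not pass (adjusted p = 0.0584).

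Crat, the acetyl-carnitine-forming transferase that buffers acetyl-CoA, rose with ISO both without and with inhibitors. It was at 422, 398 and 449.9 CPM in Vehicle and 821, 781 and 841 with ISO, and at 387, 419 and 382 in Lipase Inh. + Vehicle and 795, 797 and 802 in Lipase Inh. + ISO. The log2 changes were 0.94 ± 0.064 and 1.01 ± 0.064, and their difference of 0.067 ± 0.089 did not pass (adjusted p = 0.613, edgeR). SR-3420 raised Crat by 0.26 ± 0.063 without and 0.30 ± 0.064 with inhibitors, and ISO lay above SR-3420 by 0.68 ± 0.063 (adjusted p = 5.77e-08). Both SR-3420 calls of Crat were lost on total counts alone. The span of Crat overlaps Dolpp1 on the opposite strand by 54 bases.

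Cpt2, which returns acyl groups to CoA at the inner membrane, was at 224, 221 and 232 CPM in Vehicle, 239, 224 and 261 with ISO and 151, 149.8 and 157 with SR-3420. All SR-3420 samples lay below the others, a log2 change of -0.56 ± 0.073 (adjusted p = 1.54e-06, edgeR), while under inhibitors SR-3420 differed from its control by 0.13 ± 0.074 (adjusted p = 0.413) and the interaction was 0.70 ± 0.10 (adjusted p = 3.64e-05). Cpt1b, the muscle-type isoform that brown fat also uses, was at 9.73, 12.8 and 5.56 CPM in Vehicle, 14.9, 18.7 and 10.3 with ISO and 15.5, 23.9 and 10.4 with SR-3420. Its replicates spread widely. The SR-3420 call of 0.79 ± 0.31 (adjusted p = 0.0351) was lost on total counts alone and without replicate 1 or 2 of SR-3420 or replicate 1 or 3 of Vehicle (adjusted p up to 0.259).

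The mitochondrial spiral was split by stimulus after TMM scaling, whereas on total counts alone the same 5 genes were lower with both stimuli. With ISO, 4 of 9 genes were higher (Acadl, Acadvl, Hadha and Hadhb, by 0.35 to 0.54 on the log2 scale) and 1 was lower (Hadh, -0.18 ± 0.066, a call lost without Vehicle replicate 1 or ISO replicate 1 or 2, adjusted p up to 0.169), where 26.8% and 25.0% of all genes were, whereas on total counts alone 1 was higher and 5 lower. With SR-3420, 5 of 9 were lower (Acadm, Acads, Hadh, Echs1 and Acaa2, changes of -0.48 to -0.32) and 1 was higher (Hadha, 0.33 ± 0.065), against 25.4% and 26.0% of all genes, and on total counts alone 5 were lower and none higher. ISO lay above SR-3420 in 7 of the 9 (15.8% of all genes) and below in none by edgeR, by DESeq2 or at an unadjusted p under 0.05, and in 3 and 0 on total counts alone.

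Acadm, the medium-chain acyl-CoA dehydrogenase, was at 684, 596 and 665 CPM in Vehicle, 679, 577 and 748 with ISO and 516, 491 and 545 with SR-3420. All SR-3420 samples lay below all Vehicle samples, and ISO overlapped Vehicle. The change with SR-3420 was -0.32 ± 0.082 (adjusted p = 0.00234, edgeR). Hadh, the hydroxyacyl-CoA dehydrogenase for shorter chains, was at 459, 408 and 395 in Vehicle, 359, 365 and 389.9 with ISO and 289, 319 and 295 with SR-3420. Under inhibitors it was at 370.4, 393 and 358 in Lipase Inh. + Vehicle and 379, 393 and 372 in Lipase Inh. + SR-3420, and the groups overlapped. SR-3420 changed Hadh by -0.48 ± 0.066 (adjusted p = 3.07e-06) without inhibitors, and the interaction was 0.51 ± 0.094 (adjusted p = 0.000322). Acaa2, the mitochondrial thiolase that cleaves off acetyl-CoA, was lower with SR-3420, at -0.43 ± 0.12 (adjusted p = 0.00639), a call lost without Vehicle replicate 1 (adjusted p = 0.1).

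Acadvl, the very-long-chain acyl-CoA dehydrogenase of the inner membrane, was at 105, 84.3 and 82.4 CPM in Vehicle and 111, 130.1 and 105 with ISO, a change of 0.35 ± 0.10 (adjusted p = 0.00635, edgeR) that was lost without ISO replicate 2 (adjusted p = 0.059) and on total counts alone. Hadha and Hadhb encode both subunits of the trifunctional protein, which carries out the later steps of the spiral on long chains. Hadha was at 254, 232 and 242 in Vehicle, 354, 358 and 343 with ISO and 318, 315 and 281 with SR-3420, 3 groups that did not overlap. Hadhb was at 164, 158 and 179 in Vehicle, 203, 205 and 237 with ISO and 187, 162 and 163 with SR-3420, where SR-3420 overlapped Vehicle. The log2 changes of Hadha and Hadhb were 0.54 ± 0.065 and 0.36 ± 0.095 with ISO, and 0.33 ± 0.065 and 0.032 ± 0.095 with SR-3420. On total counts alone Hadhb with ISO was 0.059 and Hadha with SR-3420 was 0.17, and neither passed. The span of Hadha overlaps Gareml on the opposite strand by 77 bases.

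Hadha and Hadhb lie head to head with annotated starts 273 bases apart, and the 250 bases before each start have 228 bases in common. The 250 bases before the start of Hadhb are shown because they hold this common stretch (chr5:30155003-30155252, plus strand, RefSeq on GRCm38.p6). No TGACG was found in them on either strand, and no letters are capitalised.
Hadhb: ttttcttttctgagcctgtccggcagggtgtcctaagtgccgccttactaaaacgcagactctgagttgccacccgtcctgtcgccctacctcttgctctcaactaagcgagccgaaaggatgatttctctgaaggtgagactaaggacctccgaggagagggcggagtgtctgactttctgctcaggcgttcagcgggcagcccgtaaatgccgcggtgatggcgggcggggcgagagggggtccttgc

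With SR-3420, 3 of 3 genes for unsaturated chains and 2 of 3 for electron transfer were lower, where 25.4% of all genes were. Eci1 and Eci2, which shift double bonds, and Decr1, which reduces them, were all lower with SR-3420, with changes of -0.42 ± 0.069, -0.24 ± 0.069 and -0.31 ± 0.092, on both scalings. The largest adjusted p of the 3 was 0.00829 (edgeR), and the call of Decr1 was lost without Vehicle replicate 3 (adjusted p = 0.0631). With ISO only Eci1 passed, at -0.18 ± 0.069 (adjusted p = 0.035), a call lost without replicate 1 or 3 of Vehicle or replicate 1 or 2 of ISO (adjusted p up to 0.213). Etfa and Etfb, the subunits of the electron transfer flavoprotein, were lower with SR-3420, with changes of -0.41 ± 0.16 and -0.52 ± 0.11. The Etfa call was lost without Vehicle replicate 1 or SR-3420 replicate 1 or 3 (adjusted p up to 0.323). Etfdh, which passes these electrons to ubiquinone, was at 135, 132 and 131 CPM in Vehicle, 175, 174 and 181 with ISO and 129.7, 132 and 127 with SR-3420. It was higher with ISO by 0.42 ± 0.057 without and 0.47 ± 0.056 with inhibitors, and its ISO call without inhibitors was lost on total counts alone (adjusted p = 0.248).

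With inhibitors present, few members passed with SR-3420. In Lipase Inh. + SR-3420 against Lipase Inh. + Vehicle, 4 of 39 members were higher (2.99% of all genes) and 1 was lower (1.36%): Acsl1, Crat, Slc27a1 and Acaa1b rose, and Acsl3 fell. None of the 15 genes of the spiral, of unsaturated chains and of electron transfer passed in edgeR or DESeq2, and 1 was higher and 0 lower at an unadjusted p under 0.05. Over all members the SR-3420 interaction was positive in 12 (12.5% of all genes), between 0.30 and 0.89, and negative in 6 (14.8%), from -0.98 for Acsl4 to -0.26 for Hadha. Without the shallow Lipase Inh. + SR-3420 replicate 2, 10 interactions were positive and 6 negative, and 3 members were higher and 1 lower in Lipase Inh. + SR-3420. Besides Cd36, the interaction calls most often lost were those of Hadha (lost in 8 fits without 1 sample, adjusted p up to 0.127), Eci2 (6 fits, up to 0.0713), and Acadm, Etfb and Hsd17b4 (5 fits each, up to 0.0828, 0.0932 and 0.0867), with samples of all 4 groups among those left out.

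**Figure D3:**
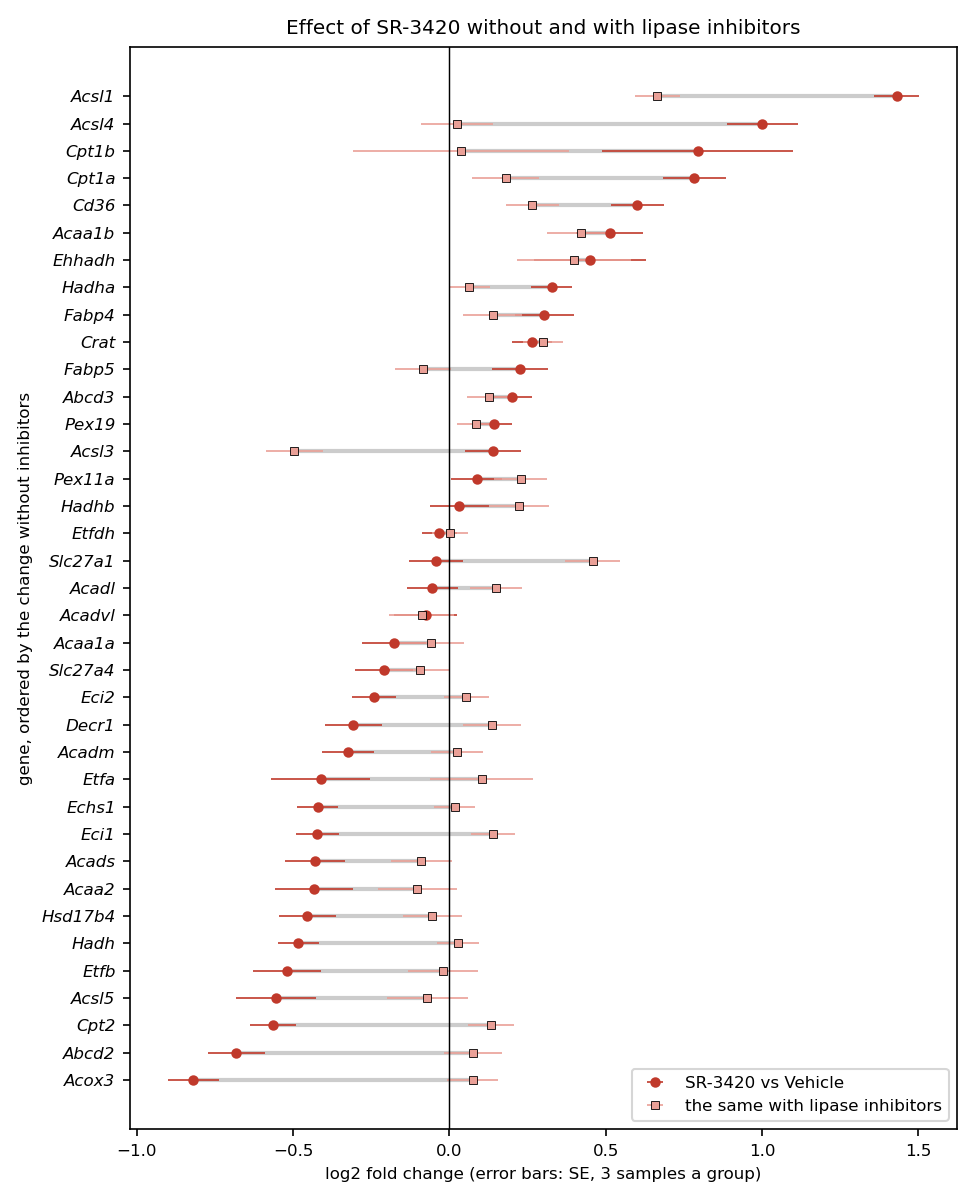
Log2 fold change with SR-3420 (horizontal axis, bars are SE, 3 samples a group) for 37 members (vertical axis, Fabp3 and Acss1 with few counts are left out), without inhibitors (circles) and with them (squares), each pair joined by a grey line. Circles run from -0.82 for Acox3 to 1.43 for Acsl1, while most squares lie near 0, with Acsl1 at 0.67 and Acsl3 at -0.50 farthest from it.

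The peroxisomal genes changed in both directions. Acox3, an acyl-CoA oxidase known for branched chains, was at 191, 196 and 207 CPM in Vehicle, 189.8, 182 and 197 with ISO and 107, 111 and 119 with SR-3420. The SR-3420 samples lay far below the others, and in Lipase Inh. + SR-3420 Acox3 was back at 187, 198 and 186. The change with SR-3420 was -0.82 ± 0.082 (adjusted p = 3.85e-08, edgeR), the largest decrease of a member with this compound, and its interaction was 0.89 ± 0.12 (adjusted p = 6.80e-06). Hsd17b4, the bifunctional enzyme for branched and very long chains, was lower with SR-3420, at -0.45 ± 0.091 (adjusted p = 0.000271).

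Ehhadh, the peroxisomal bifunctional enzyme of straight chains (chr16:21761358-21787907, mm9), had the largest ISO interaction of the members. It was at 64.5, 53.2 and 77.5 CPM in Vehicle, 80.1, 61.03 and 99.9 with ISO and 83.7, 81.0 and 101 with SR-3420. With inhibitors it was at 71.4, 63.4 and 78.6 in Lipase Inh. + Vehicle, 22.3, 13.8 and 27.6 in Lipase Inh. + ISO and 85.2, 84.2 and 109 in Lipase Inh. + SR-3420. Only the Lipase Inh. + ISO samples stood apart, below every other sample. ISO changed Ehhadh by 0.30 ± 0.18 without inhibitors, which did not pass (adjusted p = 0.17, edgeR), and by -1.71 ± 0.20 with them (adjusted p = 1.53e-07), an interaction of -2.02 ± 0.27 (adjusted p = 4.71e-06). The rise with SR-3420 of 0.45 ± 0.18 (adjusted p = 0.0409) was lost on total counts alone and without replicate 1 or 2 of Vehicle or replicate 1 or 3 of SR-3420 (adjusted p up to 0.179).

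The promoter window of Ehhadh is given beside that of Acsl4 because both hold 1 TGACG, in capitals, while ISO under inhibitors moved the genes in opposite directions (chr16:21787835-21788084, minus strand, RefSeq on GRCm38.p6). In Ehhadh the match begins 179 bases before the start.
Ehhadh: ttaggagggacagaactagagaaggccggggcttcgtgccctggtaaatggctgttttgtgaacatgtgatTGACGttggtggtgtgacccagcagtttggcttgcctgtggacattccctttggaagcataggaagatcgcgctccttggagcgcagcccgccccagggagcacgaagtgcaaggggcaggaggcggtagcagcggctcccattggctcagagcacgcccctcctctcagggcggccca

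Abcd2, a transporter of very-long-chain acyl-CoA into the peroxisome, was the member that fell most with ISO without inhibitors. It was at 59.8, 70.8 and 62.3 CPM in Vehicle, 31.4, 31.6 and 36.8 with ISO and 43.3, 38.1 and 38.8 with SR-3420, and all stimulated samples lay below all Vehicle samples. With inhibitors it was at 57.1, 56.8 and 55.9 in Lipase Inh. + Vehicle, 15.5, 15.7 and 18.5 in Lipase Inh. + ISO and 55.3, 67.2 and 58.4 in Lipase Inh. + SR-3420. Here the ISO samples were the lowest of the series and the SR-3420 samples overlapped their control. ISO changed Abcd2 by -0.96 ± 0.093 (adjusted p = 1.97e-08, edgeR) without and -1.76 ± 0.099 (adjusted p = 1.76e-12) with inhibitors. The interactions were -0.81 ± 0.14 for ISO (adjusted p = 8.53e-05) and 0.76 ± 0.13 for SR-3420 (adjusted p = 0.000155).

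Acaa1b, a peroxisomal thiolase, was at 175, 132 and 131 CPM in Vehicle, 342, 369 and 301 with ISO and 198, 221 and 207 with SR-3420, where the groups did not overlap. In Lipase Inh. + Vehicle and Lipase Inh. + ISO it was at 117, 121 and 119.6 and 119, 126 and 137, and these overlapped. Its ISO effect went from 1.20 ± 0.11 (adjusted p = 4.74e-09, edgeR) to 0.096 ± 0.11 (adjusted p = 0.467) under inhibitors, an interaction of -1.11 ± 0.15 (adjusted p = 7.09e-06). Its rise with SR-3420 under inhibitors, 0.42 ± 0.11 (adjusted p = 0.0284), was lost on total counts alone and in 5 fits without 1 sample, namely any of Lipase Inh. + Vehicle or replicate 1 or 2 of Lipase Inh. + SR-3420 (adjusted p up to 0.173). The annotated transcripts of Acaa1a and Acaa1b were 96.6% identical over 1428 bases with an identical run of 327 bases, so that reads could be split between them and both values are uncertain. Acaa1a passed in 1 comparison, ISO over SR-3420 (0.36 ± 0.10), which was lost without SR-3420 replicate 1 (adjusted p = 0.0563) and on total counts alone.

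Pex11a, a factor of peroxisome division, was at 124, 119 and 110.3 CPM in Vehicle and 112, 115 and 121 with ISO, which overlapped, and at 107, 110.3 and 89.2 in Lipase Inh. + Vehicle and 145, 139.9 and 159 in Lipase Inh. + ISO, which did not. The latter change was 0.54 ± 0.083 (adjusted p = 8.78e-06, edgeR), with an interaction of 0.56 ± 0.12 (adjusted p = 0.000822). Pex19, which imports peroxisomal membrane proteins, and Abcd3, another acyl-CoA transporter, rose with ISO by 0.44 ± 0.059 and 0.37 ± 0.067, and under inhibitors by 0.50 ± 0.059 and 0.35 ± 0.067. Their ISO calls without inhibitors were lost on total counts alone, as was that of Abcd3 under inhibitors. Their smaller rises with SR-3420, 0.14 ± 0.059 and 0.20 ± 0.067, were lost on total counts alone and in 4 and 2 fits without 1 sample: for Pex19 without any SR-3420 replicate or Vehicle replicate 2 (adjusted p up to 0.218), and for Abcd3 without Vehicle replicate 1 or SR-3420 replicate 3 (up to 0.104).

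The effect of ISO with the lipases inhibited differed from gene to gene. In Lipase Inh. + ISO against Lipase Inh. + Vehicle, 20 members were higher and 5 lower (29.4% and 28.3% of all genes), counts that were 11 and 8 on total counts alone. Past a log2 change of 1, the higher ones were Acsl1, Acsl4, Cpt1a and Crat (5.43% of all genes) and the lower ones Ehhadh and Abcd2 (7.63%). By the same rule 3 were higher and 3 lower on total counts alone, with Slc27a1 among the latter at -1.21. The ISO interaction was positive in 7 members (14.9% of all genes) and negative in 8 (16.6%). No interaction passed for 10 members that rose with ISO, whose effects without and with inhibitors are thus not shown to differ. These were Fabp4, Acsl5, Crat, Acadl, Acadvl, Hadha, Hadhb, Etfdh, Pex19 and Abcd3. On total counts alone only Crat and Hadha of these were higher with ISO. Negative interactions were found for Cd36, Fabp5, Acsl1, Acsl3, Acaa1b, Slc27a1, Ehhadh and Abcd2, and positive ones for Acsl4, Cpt1a, Slc27a4, Cpt2, Acox3, Pex11a and Etfb, of which the last was lost in 9 of 12 fits without 1 sample (adjusted p up to 0.164). None of the 9 genes of the mitochondrial spiral had an ISO interaction that passed, in edgeR or DESeq2 (1 was positive and 1 negative at an unadjusted p under 0.05), and their interactions ran from -0.22 to 0.24.

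**Figure D4:**
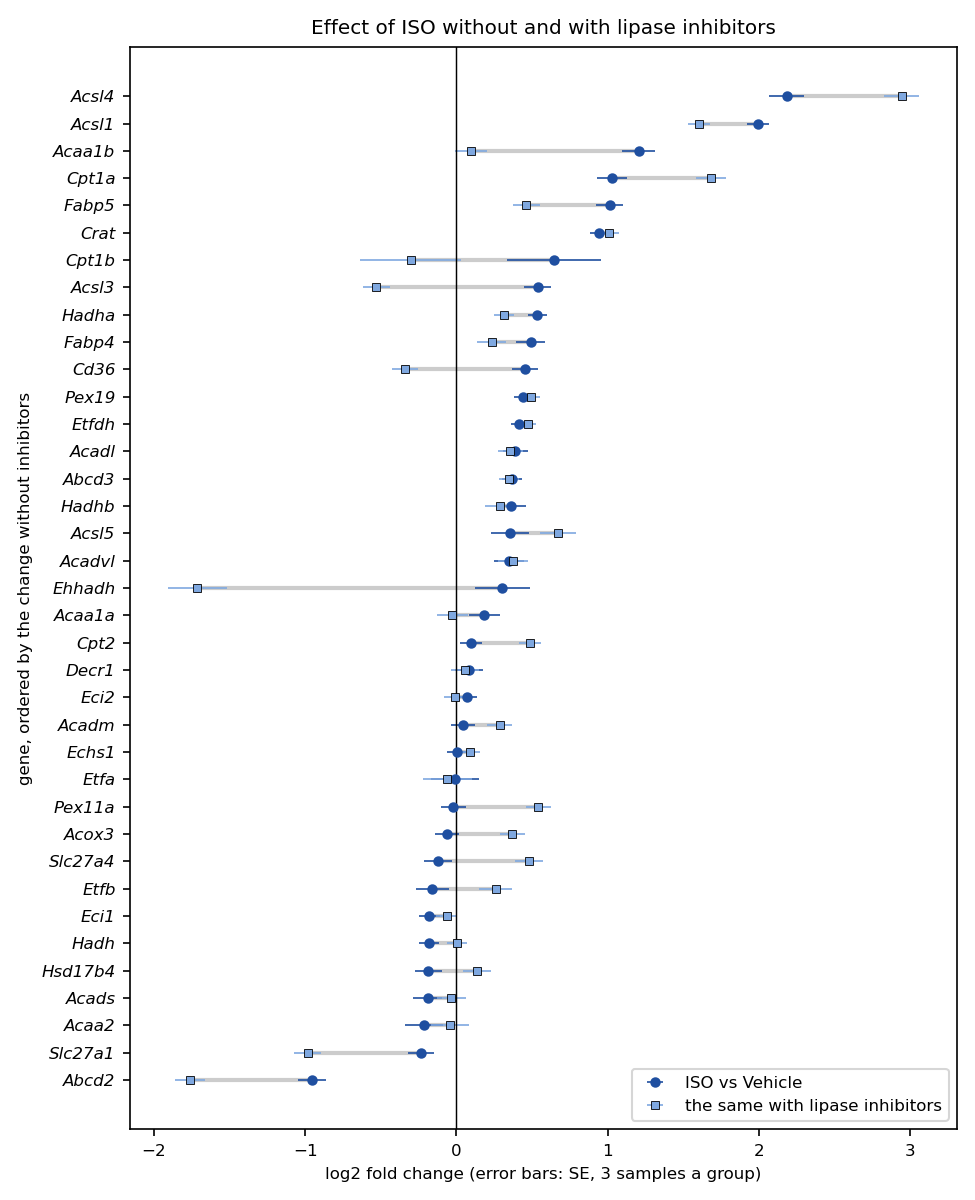
Log2 fold change with ISO (horizontal axis, bars are SE, 3 samples a group) for 37 members (vertical axis, Fabp3 and Acss1 with few counts are left out), without inhibitors (circles) and with them (squares), each pair joined by a grey line. Circle and square lie close together for Crat, Pex19, Etfdh and Acadl, and far apart for Ehhadh (0.30 and -1.71), Acaa1b (1.20 and 0.10) and Acsl3 (0.54 and -0.53).

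The inhibitors alone changed 1 of 39 members, Acsl3, against 0.485% of all genes higher and 0.428% lower. For the other 38 the log2 changes ran from -0.76 for the rarely counted Fabp3 to 0.14 for Acsl4, and none passed in edgeR's quasi-likelihood test. At an unadjusted p under 0.05, 9 members were lower and 1 was higher. The share of all genes at that threshold is not given here, so these counts are not read as a result about the members. Acsl1 was called lower with DESeq2 and without Lipase Inh. + Vehicle replicate 2, and Eci1 without Vehicle replicate 2.

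Set directly against SR-3420, ISO gave higher levels in 24 of 39 members (15.8% of all genes) and a lower level in 1, Abcd2 (13.9% of all genes, -0.27 ± 0.095). The median difference was 0.31, and that of all genes -0.0095. Largest were Acsl4 (1.18 ± 0.11, adjusted p = 5.92e-08, edgeR), Acsl5 (0.91 ± 0.13), Fabp5 (0.79 ± 0.088), Acox3 (0.76 ± 0.082), Acaa1b (0.69 ± 0.11), Crat (0.68 ± 0.063) and Cpt2 (0.66 ± 0.073). On total counts alone the split was 12 higher and 4 lower, with a shift of the median gene of -0.15. The Abcd2 call was lost without ISO replicate 1 or 2 or SR-3420 replicate 1 or 3 (adjusted p up to 0.146). ISO and SR-3420 share the Vehicle samples, so their changes against Vehicle are given here only side by side. Of the members, 11 were higher with both, 3 lower with both (Hadh, Eci1 and Abcd2) and 1, Acsl5, was higher with ISO and lower with SR-3420. The share of all genes called in both is not given here, so these overlaps are not read as a result about the members.

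Further genes of the pathway were listed by function as well. Of 13 other mitochondrial enzymes, mostly of the related dehydrogenase family and of branched-chain and propionyl-CoA breakdown, 12 were lower and none higher with SR-3420 (25.4% and 26.0% of all genes, median -0.44), 10 had a positive and none a negative SR-3420 interaction (12.5% and 14.8%), and with ISO 5 were lower and none higher (25.0% and 26.8%), or 12 lower on total counts alone. Of 14 other genes of uptake, activation and shuttle, 11 were tested. With ISO 3 of these were higher and 4 lower (26.8% and 25.0% of all genes), and with SR-3420 3 were higher and 5 lower (26.0% and 25.4%). Past both thresholds were Slc25a20, the carnitine-acylcarnitine carrier (1.06 ± 0.080 with ISO), Slc22a5, the carnitine importer (1.16 ± 0.082 with SR-3420), and Slc27a3, a relative of the transport proteins (-1.66 ± 0.22 and -1.77 ± 0.22). The acetyl-CoA synthetase Acss2 had an ISO interaction of -1.23 ± 0.13 (adjusted p = 2.57e-07, edgeR).

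Of 26 other peroxisomal genes, 9 were higher and 9 lower with ISO (26.8% and 25.0% of all genes), and 6 higher and 14 lower with SR-3420 (26.0% and 25.4%). Pex5, the import receptor for matrix proteins, rose with ISO by 1.60 ± 0.14 without and 2.56 ± 0.14 with inhibitors. Pex26, which anchors the import machinery, fell by 1.00 with ISO, and under inhibitors ISO raised Hacl1, a lyase of branched-chain breakdown, by 1.88 ± 0.23 and changed Acox2, another oxidase, by -1.09 ± 0.23.

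Among 10 regulators of these genes, 5 were higher and 1 lower with ISO (26.8% and 25.0% of all genes), while 3 were higher and 6 lower with ISO under inhibitors (29.4% and 28.3%), and the ISO interaction was positive in 2 and negative in 7 (14.9% and 16.6%). With SR-3420 6 were higher and 2 lower (26.0% and 25.4%), and under inhibitors 5 were higher and 1 lower (2.99% and 1.36%). The coactivator gene Ppargc1a rose by 3.83 ± 0.089 with ISO and 1.85 ± 0.083 with ISO under inhibitors, and by 1.01 ± 0.083 with SR-3420. Ppara, the nuclear receptor for fatty acids, had means of 252 CPM in Vehicle, 619 with ISO, 712 with SR-3420, 284 in Lipase Inh. + Vehicle, 183 in Lipase Inh. + ISO and 555 in Lipase Inh. + SR-3420. It rose with SR-3420 under inhibitors by 0.96 ± 0.15 (adjusted p = 0.000437), and its ISO interaction was -1.93 ± 0.22 (adjusted p = 4.80e-07, edgeR). Negative ISO interactions past a log2 change of 1 were also found for Ppargc1a (-1.99), Nrip1 (-1.86 ± 0.10) and Ppargc1b (-1.62 ± 0.18), and a positive one for Esrra (1.35 ± 0.28). Rxra, the partner of the PPARs, fell with ISO by 1.17 without and 1.48 with inhibitors. On total counts alone 3 regulators were higher and 3 lower with ISO. Of 4 ketone body genes only 2 were counted often enough to be tested, and Oxct1, which uses ketone bodies, was lower with SR-3420 (-0.29 ± 0.059).

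Promoter windows of 250 bases were found in RefSeq for 31 of the 40 members, 35 windows in all. TGACG occurred on either strand in 8 of these windows, those of Etfdh, Abcd3, Acadm, Fabp3, Acox3, Etfa, Ehhadh and Acsl4, and in 17.8% of the windows of all genes. The full element TGACGTCA, which contains TGACG, was in none of the 35 and in 1.55% of all 32851 windows. The direct repeat bound by PPAR and RXR was searched on both strands as 2 copies of AGGTCA with any 1 base between them and, relaxed, as 2 copies of AGGNCA spaced likewise, and was found in none of the 35 windows and in 0.0335% and 0.338% of all.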

How the data were processed

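Per the labels, total RNA of 18 samples of BAT-LgT brown adipocytes (6 groups of 3, taken from the sample titles) was made into TruSeq libraries. The authors aligned reads to mm9 with STAR 2.4.2a, made HOMER tag directories and used iRNA-seq to count reads in each RefSeq gene. They deposited whole-number counts, neither normalised nor filtered, with positions and counted lengths. The sources used here do not give the strand setting. The table held 0 columns of other samples. No molecular identifiers are described, so the level given by 3 counts reflects counting error alone.

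The counts were taken into edgeR 4.0.16 (R 4.3.3). filterByExpr kept genes (minimum count 10, minimum total 15), TMM factors scaled the libraries, and 1 quasi-likelihood model with 6 group means took in all 18 samples. Benjamini-Hochberg adjustment ran over the 12156 genes tested. A gene passed when its adjusted p did not exceed 0.05, and was past both thresholds when its log2 fold change was also 1 or more in size. The standard error is the log2 fold change over the root of F. An interaction is the stimulus effect under inhibitors less the effect in their absence. Starts in the table count from 0 and are printed counting from 1. The step was tested on simulated counts. Replicates of a group differed by more than counting noise, with a chi-square of at least 3.56 per degree of freedom.

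The members and lists were chosen with earlier results of these data known. Named with values were members chosen by role, every member past both thresholds, those whose ISO direction turned under inhibitors, and genes of the further lists past both thresholds. A result of the further lists is not reported here. Other members given with values, Cd68, Myod1, Oxct1, Dio2, Cox7a1 and genes that overlap a member were named after their values were seen. Alternatives were DESeq2 1.42.0, RLE factors, total counts alone, other filters, a replicate block, only the groups compared, leaving out Lars2, and leaving out each sample in turn. Promoter windows came from RefSeq on GRCm38.p6, which differs from the mm9 build of the counts, and coordinates were not converted.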

Additional observations from a re-analysis of the deposited data

Results flagged for a closer look

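The effect of a stimulus differed between cells without and with lipase inhibitors in 33 member results, by a test of the difference itself (the interaction in edgeR, adjusted p at most 0.05). All values are on the log2 scale, and a positive one means that the stimulus effect was larger, or less negative, under inhibitors. Technical and biological sources of these differences were not tested.

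For ISO, 8 were negative (16.6% of all genes): Ehhadh -2.02, Acaa1b -1.11, Acsl3 -1.07, Abcd2 -0.81, Cd36 -0.79, Slc27a1 -0.75, Fabp5 -0.55 and Acsl1 -0.39. The 7 positive ones (14.9% of all genes) were Acsl4 0.76, Cpt1a 0.65, Slc27a4 0.60, Pex11a 0.56, Acox3 0.43, Etfb 0.42 and Cpt2 0.39. Of these calls, that of Etfb was lost in 9 fits that left out 1 sample.

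For SR-3420, 12 were positive (12.5% of all genes): Acox3 0.89, Abcd2 0.76, Cpt2 0.70, Eci1 0.56, Hadh 0.51, Slc27a1 0.50, Etfb 0.50, Decr1 0.44, Echs1 0.44, Hsd17b4 0.40, Acadm 0.35 and Eci2 0.30. The 6 negative ones (14.8% of all genes) were Acsl4 -0.98, Acsl1 -0.77, Acsl3 -0.64, Cpt1a -0.60, Cd36 -0.34 and Hadha -0.26. In fits that left out 1 sample, Cd36 and Hadha were lost in 8, Eci2 in 6, and Acadm, Etfb and Hsd17b4 in 5.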

How the results depend on the processing

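Over 312 member results and 4808 alternative values, 4539 kept their side of the threshold, 181 no longer passed and 82 newly passed. A further 6 changed sign and passed in at least 1 of the 2 fits compared. Sign changes of results that passed in neither fit are held within the 4539. Decr1 with ISO, for example, was 0.082 in the main fit and -0.22 or lower on total counts alone. Total counts without TMM factors changed most. Counts of members then became 7 higher and 15 lower with ISO, 5 higher with SR-3420, 11 higher and 8 lower with ISO under inhibitors, 1 higher with SR-3420 under inhibitors, and 12 higher and 4 lower for ISO over SR-3420. The 6 sign changes arose there: Cpt2 -0.21, Acadm -0.26, Echs1 -0.30 and Eci2 -0.24 with ISO, Pex19 -0.018 with SR-3420 (adjusted p = 0.878, edgeR) and Hadh -0.22 with ISO under inhibitors. Fitting only the groups compared left 1 member lower with ISO, and DESeq2 gave 1 member lower with the inhibitors alone. Leaving out 1 sample gave 1 to 4 members lower with ISO, 0 to 1 lower with the inhibitors alone and 0 to 2 lower for ISO against SR-3420, and 107 of 138 calls passed in every such fit. The total-count scaling shifted the median gene by -0.31, -0.16, -0.23, -0.096 and -0.15 in the 5 comparisons above, in that order. The causes of the other changes were not tested.

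With a replicate block, 3 members were lower with ISO than with SR-3420, 20 results newly passed and 0 were lost. The numbers were not taken as pairing the samples, since the labels do not tie them to experiments. Of 45 same-numbered pairs, 28 had deviations that correlated over 0.1 (range -0.11 to 0.28), and 12 of 18 samples correlated best with their own number. The mean correlation was -0.012 for replicate 1, 0.15 for replicate 2 and 0.19 for replicate 3, against -0.055 between different numbers. Samples numbered 2 or 3 were thus more alike across groups than differently numbered ones. RLE factors and leaving out Lars2 changed no call. Low counts limited Fabp3, Acss1 and Slc27a2.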
